A study of Mus musculus with 12 samples.

Results

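Cholesterol supply in mouse embryonic fibroblasts (MEFs) was followed through 30 listed genes: 19 enzymes of synthesis, 4 genes that control the transcription factor SREBP2 (including its own gene), 4 genes of uptake and movement inside the cell, the exporters Abca1 and Abcg1, and Mylip. The genes were listed by name, with earlier results of these data known. All 30 were found among the 32721 genes of the deposited table, and 29 of them were among the 14279 genes with enough signal to be tested. Abcg1 was not tested because it had between 1 and 5 reads in every library.

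The fibroblasts carry a floxed allele of Vps15 (Vps15f/f), the gene listed as Pik3r4, which encodes the regulatory subunit of the class 3 phosphoinositide kinase. Poly-A RNA was sequenced in 12 libraries, 3 in each of 4 groups. The first group was Vps15KO cells (Vps15f/f transduced with adeno-CRE, which deletes the floxed segment) kept for 2 h in EBSS, a salt solution with no amino acids. The others were WT cells (Vps15f/f transduced with adeno-GFP) kept for 2 h in EBSS, Vps15KO cells in basal medium, and WT cells in basal medium. RNA was taken 5 days after transduction in all groups, and the basal medium was high-glucose DMEM (4.5 g/L) with 10% serum. Both genotypes were of the same floxed line, so CRE expression and loss of Vps15 cannot be told apart. EBSS removed serum as well as amino acids and took the place of the whole basal medium. Effects of these and of other components of the medium cannot be told apart either. The labels describe adenovirus while the library names read pLEX, and they do not say whether the replicates were separate cultures, so p-values measure the spread between these libraries.

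Cells make cholesterol from acetyl-CoA through mevalonate, farnesyl diphosphate, squalene and lanosterol. When the membrane of the endoplasmic reticulum holds little cholesterol, Scap carries SREBP2 to the Golgi, where proteases release the part that enters the nucleus and switches on the enzymes of synthesis and genes of uptake. Insig proteins hold Scap back when sterols are plentiful. Oxysterols activate the liver X receptors (LXR), which in turn switch on the exporters Abca1 and Abcg1 and Mylip, a ubiquitin ligase that sends lipoprotein receptors to degradation.

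Depth hardly differed between libraries, with 21278921 to 21698584 reads in genes. The libraries of a group differed by more than sampling noise, with chi-square values per gene of 2.92 to 22.1 between replicates. WT basal replicate 2 stood apart from both other WT basal libraries (22.1 and 21, against 3.24 between those), and WT EBSS replicate 1 stood apart to a lesser degree (8.45 and 12.2, against 3.92). The deposited log2 values were converted back to normalized counts, which are reads divided by a size factor per library. Log2 differences are differences of the deposited values, given ± the standard error (SE) of the limma fit, and a gene was called at a Benjamini-Hochberg adjusted p under 0.05. These differences are somewhat smaller than the log2 of a ratio of normalized counts when a gene has few reads.

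Of 10 fibroblast markers, 9 had at least 10 normalized counts in each group. Their summed level was 2.92e+05 to 3.06e+05 in Vps15KO EBSS libraries and 5.27e+05 to 5.68e+05 in WT EBSS libraries. In basal medium it was 2.94e+05 to 2.97e+05 in Vps15KO libraries and 5.92e+05 to 6.18e+05 in WT libraries. The summed macrophage list was 2641 to 3314 normalized counts in Vps15KO EBSS libraries, against 804 to 900.2 in WT EBSS libraries, and 2924 to 3803 in Vps15KO basal libraries, against 873 to 904 in WT basal libraries. Nearly all of it was Cd68, a lysosomal protein gene, while Adgre1, Ptprc and Mrc1 were under 3 counts in every library. The part of these marker levels in the cholesterol results was not tested. In bulk RNA, fewer cells of a type and less RNA per cell cannot be told apart.

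The promoters of the members with the largest and smallest Vps15KO difference within their role are shown, other than Stard4, because the members of a role did not all move alike. Hmgcs1 and Hsd17b7 were added after their values were seen. The bases run from 200 before a listed start of transcription up to it, in the direction of transcription. Bases inside the annotated gene were left off, which left 195 bases for Mvk, 163 for Hsd17b7 and 107 for Abca1. They come from RefSeq, build GRCm38.p6 (mm10), whose promoter table held 24 of the 30 members. Capitals mark the letters TCACNCCAC (a form of the sterol regulatory element that SREBP binds), CACGTG (an E-box, which many factors bind) and CCAAT (a box bound by NF-Y), each searched on both strands. A match on the other strand reads ATTGG for CCAAT. These 3 motifs do not overlap one another in the bases shown. The positions were chr13:8885406-8885605 (plus strand) for Idi1, chr5:114444069-114444263 (plus) for Mvk, chr13:119690151-119690350 (plus) for Hmgcs1, chr5:4104698-4104897 (minus) for Cyp51, chrX:8193513-8193712 (minus) for Ebp and chr1:169969243-169969405 (minus) for Hsd17b7. They were chr5:28071212-28071411 (plus) for Insig1, chr9:110333088-110333287 (plus) for Scap, chr12:84773113-84773312 (minus) for Npc2, chr4:53159989-53160095 (minus) for Abca1 and chr13:45389542-45389741 (plus) for Mylip.
Idi1: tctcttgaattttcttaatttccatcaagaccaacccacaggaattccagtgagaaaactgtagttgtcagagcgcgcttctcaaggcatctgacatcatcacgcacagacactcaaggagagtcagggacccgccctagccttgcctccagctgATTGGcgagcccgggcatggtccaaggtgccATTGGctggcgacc
Mvk: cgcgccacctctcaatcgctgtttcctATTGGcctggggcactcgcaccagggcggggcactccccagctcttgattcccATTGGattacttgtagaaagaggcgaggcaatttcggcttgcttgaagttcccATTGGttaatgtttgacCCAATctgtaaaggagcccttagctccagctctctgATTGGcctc
Hmgcs1: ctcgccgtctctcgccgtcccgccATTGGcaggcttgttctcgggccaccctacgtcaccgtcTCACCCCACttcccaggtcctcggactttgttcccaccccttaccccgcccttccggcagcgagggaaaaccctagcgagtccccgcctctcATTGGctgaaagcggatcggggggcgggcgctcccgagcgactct
Cyp51: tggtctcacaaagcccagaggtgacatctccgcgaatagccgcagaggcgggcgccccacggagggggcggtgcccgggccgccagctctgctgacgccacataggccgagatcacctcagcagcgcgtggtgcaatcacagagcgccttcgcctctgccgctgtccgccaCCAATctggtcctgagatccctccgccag
Ebp: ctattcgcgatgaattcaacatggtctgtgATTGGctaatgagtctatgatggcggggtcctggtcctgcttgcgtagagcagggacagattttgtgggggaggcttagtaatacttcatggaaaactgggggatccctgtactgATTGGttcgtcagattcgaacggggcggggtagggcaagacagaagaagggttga
Hsd17b7: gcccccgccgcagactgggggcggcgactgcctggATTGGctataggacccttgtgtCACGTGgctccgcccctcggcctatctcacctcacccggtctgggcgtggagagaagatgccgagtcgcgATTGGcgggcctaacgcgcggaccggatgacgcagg
Insig1: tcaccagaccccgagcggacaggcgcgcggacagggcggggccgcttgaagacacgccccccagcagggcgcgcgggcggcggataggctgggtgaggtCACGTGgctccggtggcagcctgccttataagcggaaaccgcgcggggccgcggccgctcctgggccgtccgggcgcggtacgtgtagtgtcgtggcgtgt
Scap: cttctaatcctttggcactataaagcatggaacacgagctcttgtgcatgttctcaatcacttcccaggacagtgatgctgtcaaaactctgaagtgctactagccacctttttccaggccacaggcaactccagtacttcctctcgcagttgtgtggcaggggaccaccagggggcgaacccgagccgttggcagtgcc
Npc2: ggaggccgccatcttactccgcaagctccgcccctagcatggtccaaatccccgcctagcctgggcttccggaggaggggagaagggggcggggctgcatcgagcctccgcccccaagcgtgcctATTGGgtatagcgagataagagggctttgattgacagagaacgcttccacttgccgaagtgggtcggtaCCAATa
Abca1: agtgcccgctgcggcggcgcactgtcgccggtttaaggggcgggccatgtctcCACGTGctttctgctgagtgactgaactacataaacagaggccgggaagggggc
Mylip: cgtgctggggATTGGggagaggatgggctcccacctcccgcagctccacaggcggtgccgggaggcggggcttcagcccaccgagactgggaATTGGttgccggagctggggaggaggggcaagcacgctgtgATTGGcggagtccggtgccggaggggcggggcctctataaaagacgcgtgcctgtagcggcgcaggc

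CCAAT was in the 200-base window of 20 of the 24 members (83.3%), against 29.3% of all 32851 promoter windows in the table. CACGTG was in that of 6 members (Insig1, Hsd17b7, Abca1, Sc5d, Dhcr7 and another start of Scap), against 5.26% of all windows. TCACNCCAC was in that of Hmgcs1, against 0.858% of all windows. Members with several listed starts had more than 1 window, 30 in all, of which 66.7% held CCAAT and 20% held CACGTG. A match of letters is a description and does not show that a factor binds there.

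Pik3r4, the targeted gene, had 623, 602 and 672 normalized counts in Vps15KO EBSS libraries, against 959, 891 and 834 in WT EBSS libraries. It had 633, 699.8 and 640.3 in Vps15KO basal libraries, against 864, 879 and 884 in WT basal libraries. Every Vps15KO library was below every WT library. The log2 difference was -0.48 ± 0.07 (adjusted p = 1.03e-05) in EBSS and -0.40 ± 0.07 (adjusted p = 8.41e-05) in basal medium. Reads outside the deleted exons still count towards the gene, so these values do not measure the share of cells with the deletion.

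In basal medium, Vps15KO cells had higher levels of nearly the whole synthesis pathway than WT cells. Of the 19 enzymes, 17 were called higher in Vps15KO cells, 0 were called lower, and Mvk and Ebp were not called. Over all 29 members 24 were called higher, where 29.3% of all genes tested were, and 3 were called lower, where 29.2% of all genes were (58.5% in either direction). The median log2 difference of the 19 enzymes was 1.26, against -0.01 for all genes tested. The sum of the 19 enzymes was 45256 ± 3147 normalized counts in Vps15KO cells and 18307 ± 764 in WT cells (SD, n = 3 each), a ratio of 2.47. Without WT basal replicate 2 the median was 1.11.

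The same comparison in EBSS gave 16 of the 19 enzymes higher and 0 lower in Vps15KO cells. Tm7sf2, Hsd17b7 and Ebp were not called. Over all 29 members 23 were called higher (29.4% of all genes) and 3 lower (27.8% of all genes; 57.2% in either direction), and the median of the enzymes was 1.04, against -0.0008 for all genes tested. The summed enzymes reached 35512 ± 827 normalized counts in Vps15KO EBSS cells and 15002 ± 447 in WT EBSS cells (SD, n = 3 each), a ratio of 2.37. Vps15KO cells in EBSS therefore still held 1.94 times the enzyme sum of WT cells in basal medium. Scap, Abca1 and Mylip were called lower in both media.

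**Figure D1:**
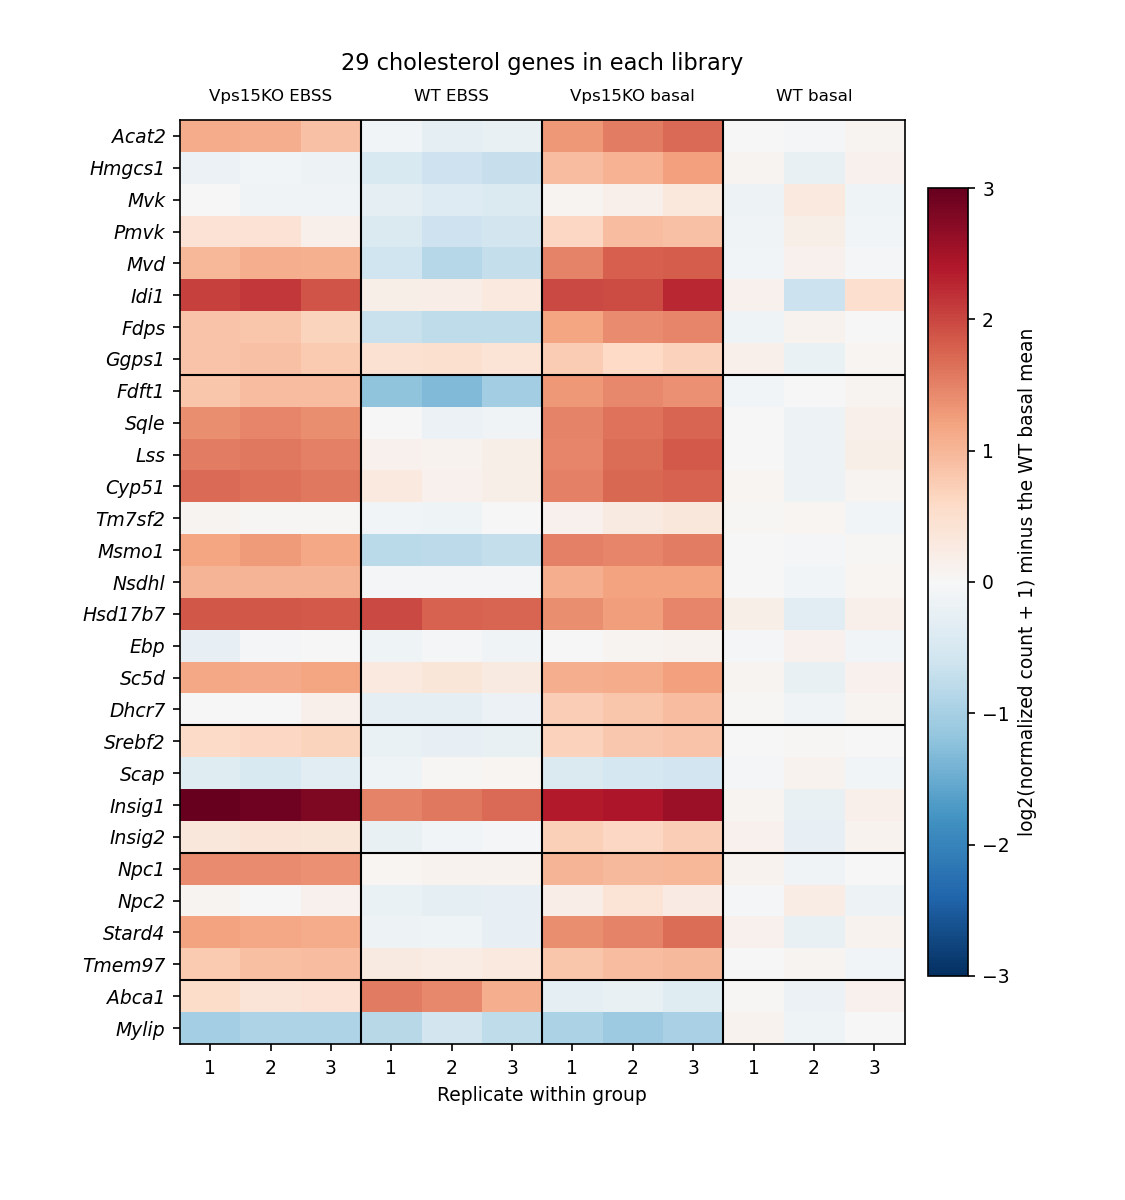
Each row is a gene and each column a library; colour gives log2 of the normalized count plus 1, minus the mean of the WT basal libraries. Black lines separate the groups and the 5 roles (mevalonate steps, sterol steps, SREBP2 control, uptake and intracellular transport, export and Mylip), and most synthesis rows are red in both Vps15KO groups while Scap and Mylip are blue there.

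Among the mevalonate steps, Idi1, which isomerizes isopentenyl diphosphate, differed most in basal medium. It had 752, 741 and 919 normalized counts in Vps15KO basal libraries, against 209, 122 and 272 in WT basal libraries, and 797, 831 and 704 in Vps15KO EBSS libraries, against 216, 221 and 234 in WT EBSS libraries. The groups did not overlap in either medium, and WT basal replicate 2 was the lowest library. Its log2 difference was 1.92 ± 0.16 (adjusted p = 1.61e-08) in basal medium and 1.68 ± 0.16 (adjusted p = 8.35e-08) in EBSS. Mvd, the decarboxylase that makes isopentenyl diphosphate, had 1485, 1825 and 1879 in Vps15KO basal libraries, against 498, 584 and 512 in WT basal libraries. In EBSS it had 1051, 1126 and 1117 in Vps15KO libraries, against 351, 291 and 325 in WT libraries. All Vps15KO libraries were above all WT libraries of the same medium, with log2 differences of 1.65 ± 0.09 in basal medium and 1.69 ± 0.09 in EBSS.

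Fdps, the synthase of farnesyl diphosphate, had 4651, 5471 and 5676 normalized counts in Vps15KO basal libraries, against 1865, 2207 and 2072 in WT basal libraries. In EBSS it had 3696, 3658 and 3272 in Vps15KO libraries, against 1282, 1199 and 1207 in WT libraries. The groups did not overlap in either medium, with log2 differences of 1.35 ± 0.08 in basal medium and 1.50 ± 0.08 in EBSS. Acat2, the cytosolic thiolase that joins acetyl-CoA units, was higher in Vps15KO cells by 1.47 ± 0.09 in basal medium and 1.18 ± 0.09 in EBSS. Pmvk, which phosphorylates phosphomevalonate, was higher by 0.79 ± 0.10 and 0.84 ± 0.10, and Ggps1, which diverts farnesyl diphosphate to the prenylation of proteins, by 0.65 ± 0.08 and 0.37 ± 0.08. Mvk, mevalonate kinase, sits between Hmgcs1 and Pmvk in the pathway and differed least. It had 487, 508 and 575 in Vps15KO basal libraries, against 415, 560.0 and 419 in WT basal libraries, so that the groups overlapped (0.17 ± 0.10, adjusted p = 0.146), and in EBSS the difference was 0.27 ± 0.10 (adjusted p = 0.0244). Without WT basal replicate 2, which had the highest WT value, the basal difference of Mvk was 0.31 (adjusted p = 0.00217), and its EBSS call was lost without Vps15KO EBSS replicate 1 (0.0849) or without WT EBSS replicate 2 (0.0701) or 3 (0.0836).

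Hmgcs1, which condenses acetoacetyl-CoA to HMG-CoA and holds the TCACNCCAC match, had 3736, 4047 and 4596 normalized counts in Vps15KO basal libraries, against 2056, 1684 and 2144 in WT basal libraries. In EBSS it had 1734, 1832 and 1752 in Vps15KO libraries, against 1411, 1268 and 1204 in WT libraries. The groups did not overlap in either medium, but the gap was narrower in EBSS, at 0.45 ± 0.09 (adjusted p = 0.000266), against 1.06 ± 0.09 (adjusted p = 9.99e-09) in basal medium.

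Among the sterol steps, Fdft1, squalene synthase, which commits farnesyl diphosphate to sterols, had 3954, 4218 and 4259 normalized counts in Vps15KO EBSS libraries, against 967, 881 and 1072 in WT EBSS libraries. In basal medium it had 5472, 6064 and 5775 in Vps15KO libraries, against 2091, 2247 and 2340.2 in WT libraries. The log2 difference was 2.06 ± 0.07 (adjusted p = 1.56e-13) in EBSS and 1.36 ± 0.07 (adjusted p = 2.64e-11) in basal medium. Transcripts of Fdft1 share 774 bases on the opposite strand with Ctsb, which averaged 106362 normalized counts, and whether strand was used in counting is not stated. Ctsb itself differed by 0.11 ± 0.08 in EBSS (not called) and 0.19 ± 0.08 in basal medium. Msmo1, a methyl sterol oxidase with no such overlap, had 4557, 4885 and 4476 in Vps15KO EBSS libraries, against 1153, 1159 and 1219 in WT EBSS libraries, and 5729, 5552 and 5803 in Vps15KO basal libraries, against 2031, 1935 and 2049 in WT basal libraries. Its groups were far apart in both media, at 1.95 ± 0.06 (adjusted p = 1.98e-14) in EBSS and 1.49 ± 0.06 (adjusted p = 5.1e-13) in basal medium.

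Sqle, squalene epoxidase, a rate-controlling step, had 4527, 5008 and 5399 normalized counts in Vps15KO basal libraries, against 1610.4, 1451 and 1777 in WT basal libraries. In EBSS it had 4241, 4419 and 4217 in Vps15KO libraries, against 1600.2, 1433 and 1484 in WT libraries. The groups did not overlap in either medium, with log2 differences of 1.61 ± 0.08 in basal medium and 1.50 ± 0.08 in EBSS. Lss, which closes the sterol rings to give lanosterol, was higher in Vps15KO cells by 1.60 ± 0.09 in basal medium and 1.35 ± 0.09 in EBSS. Cyp51, the lanosterol demethylase, had 3823 to 4583 in Vps15KO basal libraries, against 1219 to 1418 in WT basal libraries, and 4039 to 4341 in Vps15KO EBSS libraries, against 1474 to 1652 in WT EBSS libraries. It was higher in Vps15KO cells by 1.65 ± 0.08 in basal medium and 1.42 ± 0.08 in EBSS. Nsdhl, a sterol dehydrogenase, was higher by 1.14 ± 0.06 and 1.04 ± 0.06, Sc5d, a sterol desaturase, by 1.12 ± 0.07 and 0.85 ± 0.07, and Dhcr7, a reductase at the end of the pathway, by 0.81 ± 0.07 and 0.29 ± 0.07, in basal medium and in EBSS in each case.

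Ebp and Tm7sf2, which act on later sterols, differed least of the sterol steps in basal medium. Ebp, the sterol isomerase, had 583, 625 and 636 normalized counts in Vps15KO basal libraries, against 570.2, 647 and 559 in WT basal libraries, and 496, 575 and 586 in Vps15KO EBSS libraries, against 538, 567 and 546 in WT EBSS libraries. The groups overlapped in both media, with log2 differences of 0.05 ± 0.08 in basal medium and 0.00 ± 0.08 in EBSS. Tm7sf2, a sterol reductase whose gene overlaps Vps51 on the same strand, had 266, 293 and 308 in Vps15KO basal libraries, against 249, 252 and 231 in WT basal libraries. Its difference was 0.22 ± 0.08 (adjusted p = 0.024) in basal medium and 0.12 ± 0.08 (adjusted p = 0.229) in EBSS, and the basal call was lost without Vps15KO basal replicate 2 (0.0672) or 3 (0.106) or WT basal replicate 3 (0.0867). Vps51 went the other way in basal medium, by -0.35 ± 0.07.

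Hsd17b7, a ketosteroid reductase, depended on the medium. It had 652, 649.9 and 638 normalized counts in Vps15KO EBSS libraries, against 706, 612 and 602 in WT EBSS libraries, and the groups overlapped (0.02 ± 0.10, adjusted p = 0.901). In basal medium it had 474, 429 and 496 in Vps15KO libraries, against 202, 142 and 199 in WT libraries, with no overlap (1.26 ± 0.10, adjusted p = 8.27e-09).

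**Figure D2:**
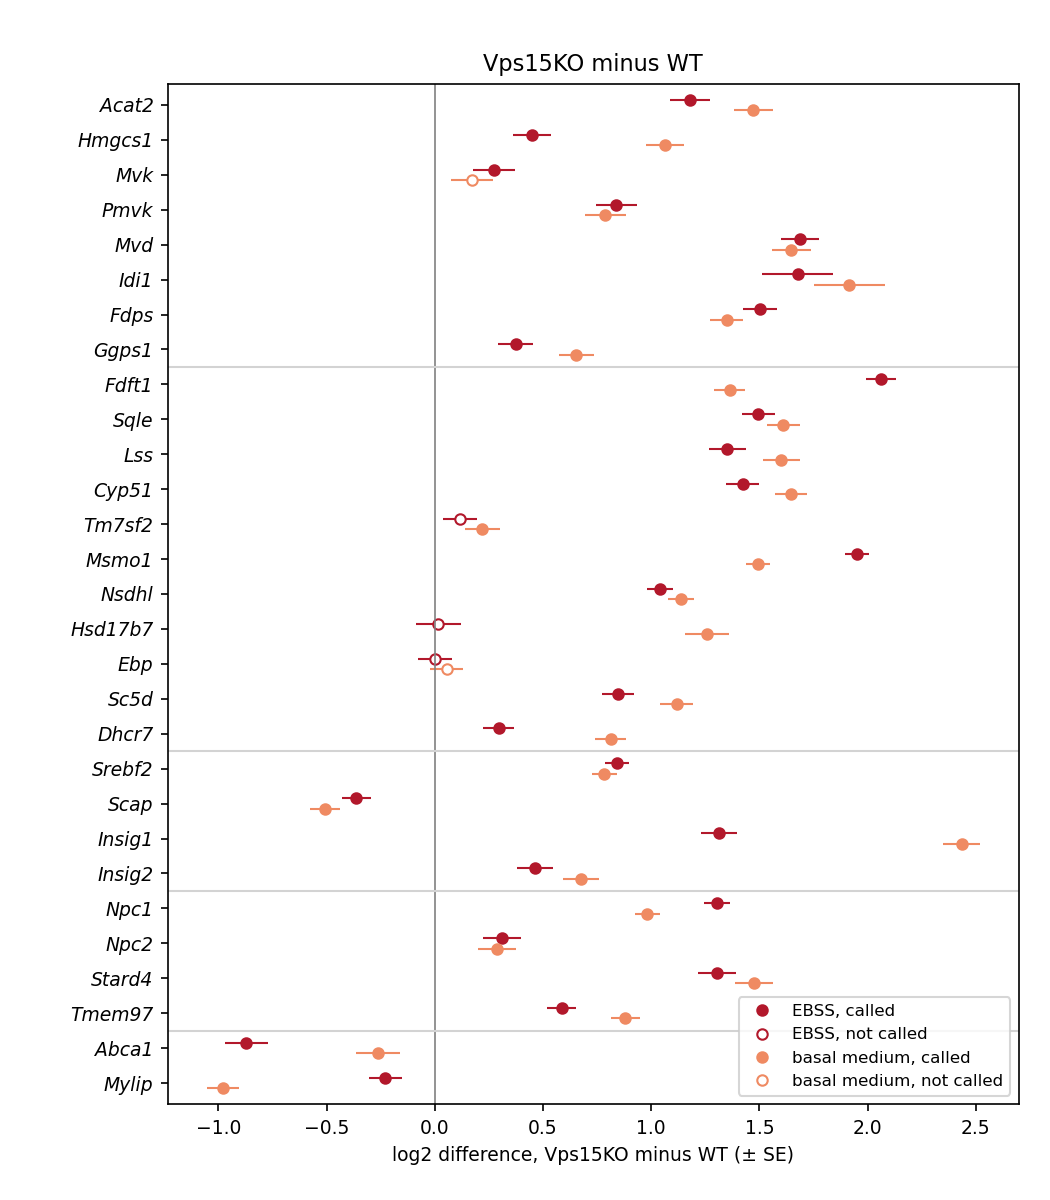
Log2 difference ± SE (x axis) of 29 genes (y axis, grouped by role), Vps15KO minus WT, in EBSS and in basal medium; filled points were called at adjusted p under 0.05. Nearly all synthesis and transport genes lie right of 0, Insig1 in basal medium lies farthest right at 2.43, and Scap, Abca1 and Mylip lie left of 0 in both media.

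The genes that control SREBP2 split between Scap and the rest. Insig1, which retains Scap in the endoplasmic reticulum and is itself a target of SREBP2, had 6194, 6392 and 6967 normalized counts in Vps15KO basal libraries, against 1241, 1011 and 1312 in WT basal libraries. In EBSS it had 9374, 8865 and 8300.2 in Vps15KO libraries, against 3301, 3511 and 3812 in WT libraries. The groups were far apart in both media, with log2 differences of 2.43 ± 0.08 (adjusted p = 2.32e-13) in basal medium and 1.31 ± 0.08 (adjusted p = 2.99e-10) in EBSS. The basal difference was number 12 from the top of all 14279 genes tested. Insig2, its paralog, was higher in Vps15KO cells by 0.67 ± 0.08 in basal medium and 0.46 ± 0.08 in EBSS. Srebf2, the gene of SREBP2, had 8346 to 9272 in Vps15KO basal libraries, against 5071 to 5259.9 in WT basal libraries, and 7681 to 8194 in Vps15KO EBSS libraries, against 4370.5 to 4487 in WT EBSS libraries. It was higher in Vps15KO cells in both media, by 0.78 ± 0.06 and 0.84 ± 0.06.

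Scap, the escort of SREBP2, went down. It had 1457, 1380 and 1319 normalized counts in Vps15KO basal libraries, against 1946, 2123 and 1877 in WT basal libraries, and 1546, 1442 and 1585 in Vps15KO EBSS libraries, against 1818, 2038 and 2050.1 in WT EBSS libraries. Every Vps15KO library was below every WT library, with log2 differences of -0.51 ± 0.07 (adjusted p = 4.53e-06) in basal medium and -0.36 ± 0.07 (adjusted p = 0.000173) in EBSS.

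All 4 genes of uptake and intracellular transport were called higher in Vps15KO cells in basal medium (29.3% of all genes) and in EBSS (29.4%). Their median was 0.93 in basal medium and 0.95 in EBSS. Npc1, the membrane protein that moves cholesterol out of lysosomes, had 3646, 3632 and 3536 normalized counts in Vps15KO EBSS libraries, against 1409, 1456 and 1459.9 in WT EBSS libraries. In basal medium it had 2754, 2661 and 2726 in Vps15KO libraries, against 1455, 1254 and 1374 in WT libraries. The gap was wide in both media (1.31 ± 0.06, adjusted p = 3.76e-12 in EBSS and 0.98 ± 0.06, adjusted p = 1.57e-10 in basal medium), and Rmc1, with which it shares 323 bases on the opposite strand, differed by 0.19 ± 0.07 and 0.25 ± 0.07. Npc2, the soluble lysosomal partner of Npc1, had the highest level of the members in all 4 groups, with means of 9748 normalized counts per kb of exon in Vps15KO EBSS cells, against 7849 in WT EBSS cells, and 11320 in Vps15KO basal cells, against 9303 in WT basal cells. It differed little between genotypes, by 0.29 ± 0.09 (adjusted p = 0.0091) in basal medium and 0.31 ± 0.09 (adjusted p = 0.00548) in EBSS, and the basal call was lost without Vps15KO basal replicate 2 (0.0604) or WT basal replicate 3 (0.0598). Stard4, a cytosolic sterol carrier, had 1651 to 2013 in Vps15KO basal libraries, against 538 to 690.4 in WT basal libraries, and was higher by 1.47 ± 0.09 there and by 1.30 ± 0.09 in EBSS. Tmem97, a membrane protein that binds Npc1, was higher by 0.88 ± 0.07 in basal medium and 0.59 ± 0.07 in EBSS.

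Of the exporters, Abca1 was lower in Vps15KO cells and Abcg1 had too few reads to test. Abca1, which hands cholesterol to apolipoproteins outside the cell, had 559.5, 504 and 521 normalized counts in Vps15KO EBSS libraries, against 1130.2, 1044 and 815 in WT EBSS libraries. In basal medium it had 319, 328 and 296 in Vps15KO libraries, against 395, 339.8 and 417 in WT libraries. No Vps15KO library reached a WT library of the same medium. The log2 difference was -0.87 ± 0.10 (adjusted p = 7.73e-07) in EBSS and -0.26 ± 0.10 (adjusted p = 0.0334) in basal medium. The small basal difference was no longer called without Vps15KO basal replicate 1 (0.0595) or 3 (0.118) or WT basal replicate 1 (0.0808) or 3 (0.128). Abcg1, the other exporter, had 1 to 3 reads in Vps15KO EBSS libraries, 1 to 5 in WT EBSS libraries, 2 to 3 in Vps15KO basal libraries and 1 to 2 in WT basal libraries, and no difference was detectable at this depth.

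Mylip had 974, 891 and 966 normalized counts in Vps15KO basal libraries, against 2030.2, 1733 and 1902 in WT basal libraries. In EBSS it had 935, 998 and 999 in Vps15KO libraries, against 1063, 1282 and 1112 in WT libraries. The basal groups were far apart (-0.98 ± 0.08, adjusted p = 4.2e-09), and the EBSS groups were close but did not overlap (-0.23 ± 0.08, adjusted p = 0.0154). The EBSS call was lost without Vps15KO EBSS replicate 1 (0.067) or WT EBSS replicate 2 (0.119). Counting non-overlap over all 29 members, 23 lay wholly above WT in basal medium, where 30.5% of all genes did, and 3 wholly below, where 31.1% did. In EBSS 24 lay wholly above (33.8% of all genes) and 3 wholly below (32.5%).

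Under EBSS for 2 h, 11 of the 19 enzymes were called lower and 1 higher in Vps15KO cells, and 8 lower and 4 higher in WT cells. Over all members, in Vps15KO cells 14 of the 29 members were called lower in EBSS than in basal medium (26.1% of all genes tested) and 4 higher (25.9%), where 52.0% of all genes were called in either direction. In WT cells 11 were lower (31.3% of all genes) and 7 higher (31.4%), where 62.7% were called in either direction. In WT cells these shares of members were near those of all genes. The EBSS libraries of Vps15KO cells lay wholly below the basal ones for 16 members (31.9% of all genes) and wholly above for 5 (31.1%), and those of WT cells wholly below for 12 (32.5%) and wholly above for 7 (32.7%). The 19 enzymes had a median log2 difference of -0.21 in Vps15KO cells and -0.10 in WT cells, against -0.02 for all genes tested in each genotype. Their summed level in EBSS was 0.785 times that in basal medium in Vps15KO cells and 0.819 times in WT cells. Without WT basal replicate 2 and WT EBSS replicate 1 the WT median was -0.21.

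The mevalonate steps were lower in EBSS more often than higher. Of the 8 mevalonate steps 6 fell and 0 rose in Vps15KO cells, with a median of -0.47, where 26.1% of all genes fell and 25.9% rose. In WT cells 5 fell and 1 rose, with a median of -0.43, where 31.3% of all genes fell and 31.4% rose. Hmgcs1 fell by 1.20 ± 0.09 on the log2 scale in Vps15KO cells (adjusted p = 2.81e-09) and by 0.58 ± 0.09 in WT cells (adjusted p = 1.48e-05). Mvd changed by -0.64 ± 0.09 in Vps15KO cells and -0.68 ± 0.09 in WT cells, Fdps by -0.57 ± 0.08 and -0.72 ± 0.08, and Pmvk by -0.46 ± 0.10 and -0.51 ± 0.10. Acat2 fell in Vps15KO cells (-0.47 ± 0.09, adjusted p = 0.000276), and in WT cells its difference was -0.18 ± 0.09 (adjusted p = 0.0885), with an adjusted p of 0.0448 without WT basal replicate 2. Mvk was lower in EBSS by a small amount in both genotypes (-0.24 ± 0.10, adjusted p = 0.0481 in Vps15KO cells, -0.34 ± 0.10, adjusted p = 0.00564 in WT cells), and the Vps15KO call was lost without Vps15KO basal replicate 2 or 3, any Vps15KO EBSS replicate, or WT EBSS replicate 2 or 3 (adjusted p 0.0542 to 0.204). Neither Mvk call held once trends with transcript length and GC content were removed (-0.16, adjusted p = 0.114, in Vps15KO cells and -0.16, adjusted p = 0.0967, in WT cells). The difference of Ggps1 in Vps15KO cells was 0.15 ± 0.08 (adjusted p = 0.135), with an adjusted p of 0.0348 without WT basal replicate 2, and it rose in WT cells (0.43 ± 0.08, adjusted p = 0.000149). Its antisense neighbour Arid4b, which shares 257 bases with it, rose by 1.17 ± 0.09 in Vps15KO cells and 1.23 ± 0.09 in WT cells.

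Of the 11 sterol steps 5 fell and 1 rose in Vps15KO cells (26.1% and 25.9% of all genes), and 3 fell and 3 rose in WT cells, near the shares of all genes (31.3% and 31.4%). Fdft1 changed by -0.47 ± 0.07 (adjusted p = 2.1e-05) in Vps15KO cells and -1.17 ± 0.07 (adjusted p = 1.37e-10) in WT cells, Msmo1 by -0.29 ± 0.06 and -0.75 ± 0.06, and Dhcr7 by -0.75 ± 0.07 and -0.24 ± 0.07. Hsd17b7 rose in both genotypes, by 0.45 ± 0.10 (adjusted p = 0.00126) in Vps15KO cells and 1.69 ± 0.10 (adjusted p = 1.48e-10) in WT cells. In Vps15KO cells its EBSS mean was 1.39 times its basal mean, and in WT cells 3.54 times. Sc5d (0.30 ± 0.07, adjusted p = 0.00173) and Cyp51 (0.20 ± 0.08, adjusted p = 0.0298) rose in WT cells, but neither was called once trends with transcript length and GC content were removed (0.05, adjusted p = 0.444, and 0.04, adjusted p = 0.596), and Cyp51 was not called without WT basal replicate 2 (0.102) or WT EBSS replicate 1 (0.13). Sqle (-0.21 ± 0.08, adjusted p = 0.0272) and Nsdhl (-0.15 ± 0.06, adjusted p = 0.0469) fell slightly in Vps15KO cells, but the Sqle call was lost without Vps15KO EBSS replicate 1 or 3 or Vps15KO basal replicate 2 or 3 (0.0734 to 0.152), and the Nsdhl call without any 1 library other than Vps15KO basal replicate 1 and WT basal replicates 2 and 3 (0.0529 to 0.152). In WT cells Sqle was called lower without WT basal replicate 2 (0.0334). Idi1, Lss, Ebp and Tm7sf2 were called in neither genotype, with differences of -0.18 to 0.20. Without WT basal replicate 3, Idi1 (0.017) and Lss (0.0475) were called higher in WT cells, and without Vps15KO basal replicate 1, Lss (0.0472) and Tm7sf2 (0.0354) were called lower in Vps15KO cells. With length and GC trends removed, Lss (-0.36, adjusted p = 0.000523) and Tm7sf2 (-0.19, adjusted p = 0.0377) were called lower in Vps15KO cells, and Sqle in WT cells (-0.25, adjusted p = 0.00237).

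Among the control genes, Insig1 rose under EBSS in both genotypes, by 0.44 ± 0.08 (adjusted p = 0.00028) in Vps15KO cells and 1.56 ± 0.08 (adjusted p = 3.46e-11) in WT cells. Its lowest EBSS library was above its highest basal library in each genotype. Insig2 fell in Vps15KO cells (-0.33 ± 0.08, adjusted p = 0.00289), and its difference in WT cells was -0.12 ± 0.08 (adjusted p = 0.222), with an adjusted p of 0.00192 without WT basal replicate 2 and 0.0344 with length and GC trends removed. Srebf2 fell by 0.16 ± 0.06 in Vps15KO cells and 0.22 ± 0.06 in WT cells, the Vps15KO call being lost without Vps15KO EBSS replicate 1 or 2 or Vps15KO basal replicate 2 or 3 (0.0574 to 0.1). Scap was called in neither (0.14 ± 0.07 and -0.01 ± 0.07), and was called higher in Vps15KO cells without WT basal replicate 2 (0.0421).

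In the transport group, Npc1 rose in Vps15KO cells (0.41 ± 0.06, adjusted p = 1.69e-05), while its difference in WT cells was 0.08 ± 0.06 (adjusted p = 0.228). Removing trends with transcript length and GC content turned the WT value to -0.19 (adjusted p = 0.00172). Stard4 fell in Vps15KO cells (-0.34 ± 0.09, adjusted p = 0.00336), and its difference in WT cells was -0.17 ± 0.09 (adjusted p = 0.0959), or -0.28 without WT basal replicate 2 (adjusted p = 0.00131). Correction for transcript length and GC content gave -0.44 there (adjusted p = 9.94e-06). The difference of Tmem97 was -0.04 ± 0.07 (adjusted p = 0.63) in Vps15KO cells, and it rose in WT cells (0.25 ± 0.07, adjusted p = 0.00322). Npc2 had -0.21 ± 0.09 (adjusted p = 0.0504) in Vps15KO cells and -0.24 ± 0.09 (adjusted p = 0.0259) in WT cells, the WT call being lost without WT basal replicate 2 (0.123) or WT EBSS replicate 2 (0.082) or 3 (0.0577). Under quantile normalization the WT value was -0.02 (adjusted p = 0.816). In Vps15KO cells it was called lower without Vps15KO basal replicate 1 (0.0418) or any WT basal replicate (0.00659 to 0.0496).

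On the export side, Abca1 rose under EBSS in both genotypes, by 0.70 ± 0.10 (adjusted p = 1.57e-05) in Vps15KO cells and 1.31 ± 0.10 (adjusted p = 4.12e-09) in WT cells. In Vps15KO cells the EBSS mean was 1.68 times the basal mean, and in WT cells 2.60 times. Mylip, which LXR controls together with Abca1, did not follow it. Its difference in Vps15KO cells was 0.05 ± 0.08 (adjusted p = 0.605), and it fell in WT cells (-0.70 ± 0.08, adjusted p = 2.8e-07). Hmgcs1, Mvk, Pmvk, Mvd, Fdps, Fdft1, Msmo1, Dhcr7 and Srebf2 fell in both genotypes, with the limits given for Mvk and Srebf2. Insig1, Hsd17b7 and Abca1 rose in both.

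**Figure D3:**
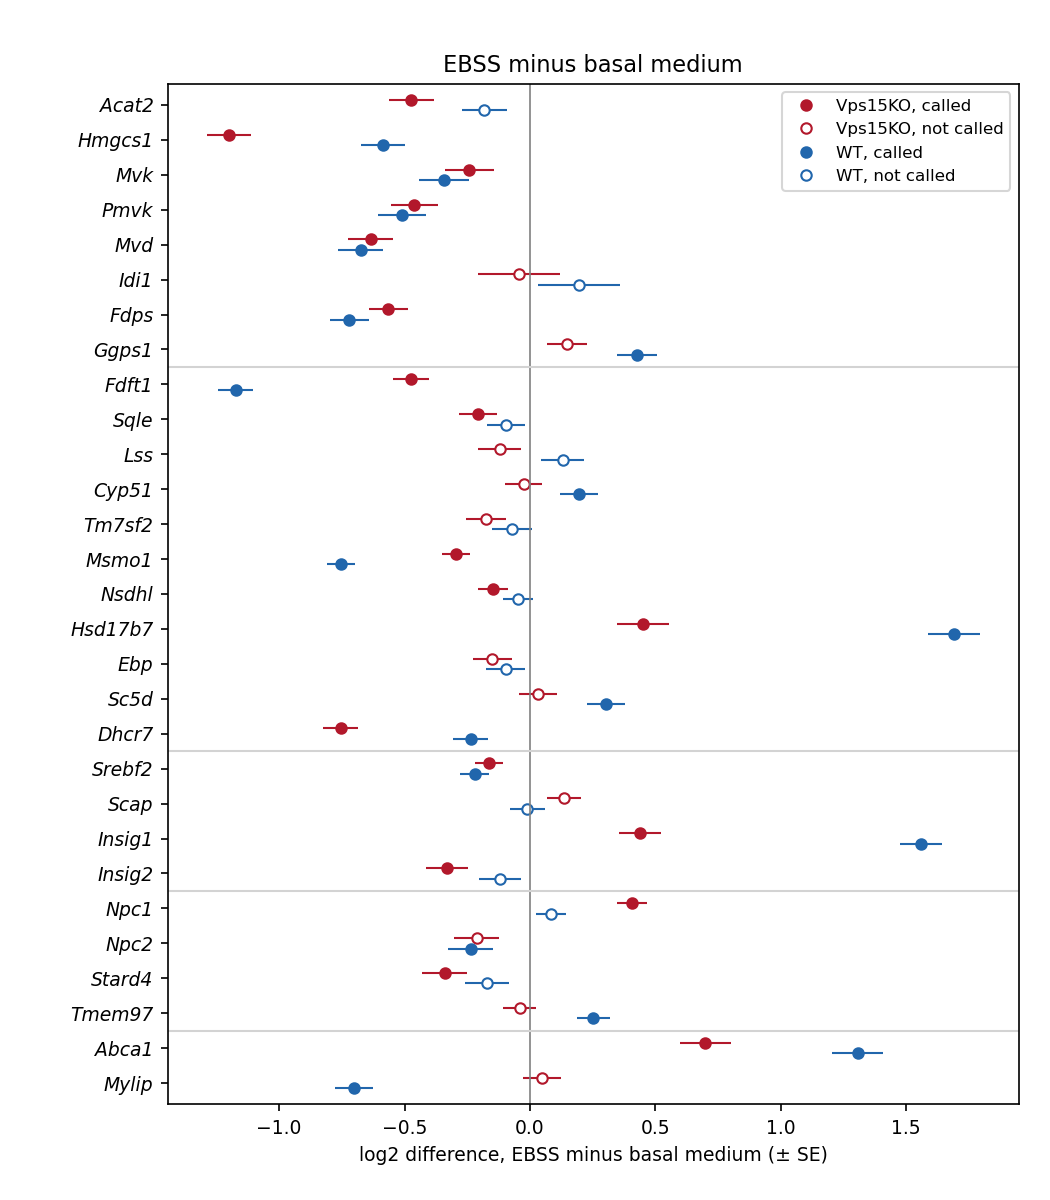
Log2 difference ± SE (x axis) of 29 genes (y axis, grouped by role), EBSS minus basal medium, in Vps15KO and in WT cells; filled points were called at adjusted p under 0.05. Most mevalonate genes lie left of 0, and Hsd17b7, Insig1 and Abca1 lie right of 0 in both genotypes, farther in WT cells.

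Insig1, Hsd17b7 and Abca1, which rose in both genotypes, were among the 6 members with CACGTG in the promoter window. These 6 had a median EBSS difference of 0.29 in Vps15KO cells (-0.75 to 0.70) and 0.81 in WT cells (-0.24 to 1.69). The 18 members with a promoter in the table and without CACGTG had a median of -0.17 in Vps15KO cells (-1.20 to 0.15) and -0.15 in WT cells (-0.75 to 0.43). Dhcr7 holds CACGTG and fell, and Scap holds it and was not called, so the motif did not mark a direction for every gene. This grouping was made after the values were seen, so its medians are no separate evidence, and it was given no test.

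The EBSS response of 10 members differed between the genotypes, by the interaction term of the same limma fit. In 4 the Vps15KO minus WT difference of the EBSS effects was positive (9.55% of all genes tested) and in 6 negative (8.24%). Hsd17b7 had the most negative value of the members, -1.24 ± 0.14 (adjusted p = 1.37e-05), number 12 from the bottom of all 14279 genes tested, followed by Insig1 with -1.12 ± 0.12 (adjusted p = 5.53e-06), number 27 from the bottom. Both genes were already high in Vps15KO cells in basal medium and rose less under EBSS than in WT cells. Their end points differed: Hsd17b7 reached overlapping levels in the 2 EBSS groups, while Insig1 stayed 2.50 times as high in Vps15KO EBSS cells as in WT EBSS cells. Abca1 (-0.61 ± 0.14, adjusted p = 0.00674) also rose less in Vps15KO cells, where its basal level was lower.

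Hmgcs1 (-0.62 ± 0.12, adjusted p = 0.00216) and Dhcr7 (-0.52 ± 0.10, adjusted p = 0.00154) fell more in Vps15KO cells than in WT cells. Fdft1 (0.70 ± 0.10, adjusted p = 0.000103) and Msmo1 (0.46 ± 0.08, adjusted p = 0.000611) fell less. The Vps15KO difference was therefore narrower in EBSS than in basal medium for Hmgcs1 and Dhcr7 and wider for Fdft1 and Msmo1. For Mylip (0.75 ± 0.11, adjusted p = 9.95e-05) the fall seen in WT cells brought its level near that of the Vps15KO cells, in which it did not pass the test. Npc1 (0.32 ± 0.08, adjusted p = 0.0122) rose in Vps15KO cells. Tmem97 had -0.29 ± 0.10 (adjusted p = 0.0394), a call that was lost without any 1 library other than Vps15KO EBSS replicate 3, Vps15KO basal replicate 1 and WT basal replicate 2 (adjusted p 0.0565 to 0.105). The other 19 tested members were not called. Of these, Acat2 was called negative without Vps15KO basal replicate 1 (0.032), Ggps1 without WT basal replicate 1 (0.0375) and Sc5d without WT basal replicate 3 (0.0337). The median over all 29 members was -0.11, against -0.0011 for all genes tested.

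**Figure D4:**
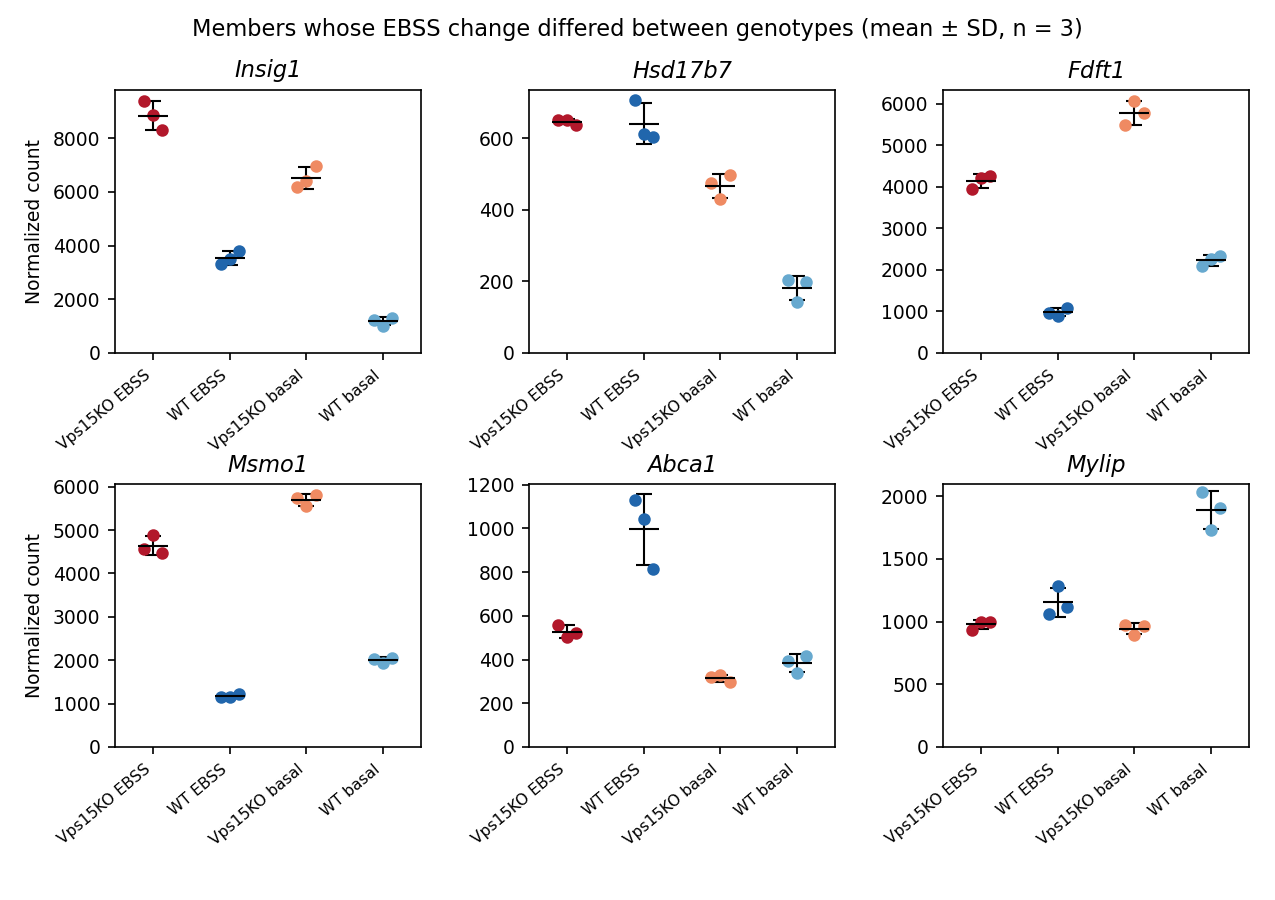
Normalized counts (y axis, from 0) of 6 genes in each library, by group, with the mean ± SD of 3 libraries. Under EBSS, Insig1 and Hsd17b7 rise less and Fdft1 and Msmo1 fall less in Vps15KO than in WT cells, Abca1 is highest in WT EBSS cells, and Mylip is highest in WT basal cells.

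Levels per kb of exon, given without a test, spanned a wide range. In Vps15KO basal cells Npc2 (11320 normalized counts per kb) was followed by Insig1 (2107), Fdft1 (1365) and Fdps (1251). In WT basal cells Npc2 (9303) was followed by Srebf2 (716), Mylip (584) and Fdft1 (527). Insig1 was at 384 per kb in WT basal cells, close to Pmvk at 390.1. The lowest tested members were Abca1 (30.4) and Tm7sf2 (65.6) in Vps15KO basal cells, and Hsd17b7 (35.5) and Abca1 (37.0) in WT basal cells.

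Other genes of cholesterol handling were taken from lists written with earlier results of these data known. Several of their counts were near the shares of all genes, which under EBSS were 25.9% higher and 26.1% lower in Vps15KO cells and 31.4% higher and 31.3% lower in WT cells. Of 10 genes of SREBP processing and sterol-regulated degradation, 5 were called higher and 3 lower in Vps15KO cells in basal medium (29.3% and 29.2% of all genes, median 0.15), and 3 higher and 4 lower in EBSS (29.4% and 27.8% of all genes, median 0.05). Mbtps2, a protease that cuts SREBP inside the Golgi membrane, was higher in basal medium (0.64 ± 0.08), while Mbtps1, the protease that cuts before it, was lower (-0.40 ± 0.06). Srebf1, the sister gene of Srebf2, was lower in Vps15KO cells in EBSS (-0.37 ± 0.06) and in basal medium (-0.29 ± 0.06), opposite to Srebf2. Under EBSS 6 of the 10 rose and 1 fell in each genotype, with medians of 0.28 in Vps15KO cells and 0.29 in WT cells. Spring1, a partner of Mbtps1, rose by 1.17 ± 0.08 in Vps15KO cells and 1.01 ± 0.08 in WT cells, and Srebf1 fell by 0.51 ± 0.06 and 0.43 ± 0.06.

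Of 9 lipoprotein receptors and endocytic adaptors, 4 were higher and 3 lower in Vps15KO cells in basal medium (29.3% and 29.2% of all genes, median -0.13), and 4 higher and 1 lower in EBSS (29.4% and 27.8% of all genes, median -0.04). Vldlr, the receptor of very low density lipoprotein, had 3361 to 3647 normalized counts in Vps15KO EBSS libraries, against 1203 to 1293 in WT EBSS libraries, and 2765 to 2915 in Vps15KO basal libraries, against 975 to 1131 in WT basal libraries. Its difference was 1.46 ± 0.06 in EBSS and 1.42 ± 0.06 in basal medium, and that of Lrp8, a related receptor, 1.25 ± 0.10 and 1.60 ± 0.10. Scarb1, a receptor of high density lipoprotein, was higher by 0.59 ± 0.06 and 0.54 ± 0.06. The 3 called lower in basal medium were Lrp1 (-0.77 ± 0.11), Lrpap1 (-0.49 ± 0.07) and Snx17 (-0.29 ± 0.07). Only Lrpap1 was called lower in EBSS (-0.62 ± 0.07). Under EBSS 1 of the 9 rose and 3 fell in Vps15KO cells (25.9% and 26.1% of all genes, median -0.11). In WT cells 2 rose and 5 fell (31.4% and 31.3% of all genes, median -0.31). Scarb1 (-0.43 ± 0.06 in Vps15KO cells and -0.47 ± 0.06 in WT cells) and Lrp10 (-0.40 ± 0.07 and -0.49 ± 0.07) fell in both genotypes.

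Of 9 tested LXR factors and other LXR targets, 3 were higher and 1 lower in Vps15KO cells in basal medium (29.3% and 29.2% of all genes, median 0.02), and 4 higher and 1 lower in EBSS (29.4% and 27.8% of all genes, median 0.21). Arl4c, a small GTPase induced by LXR, was higher (0.95 ± 0.08 in EBSS and 0.48 ± 0.08 in basal medium), as was Abca2 (0.76 ± 0.07 and 0.70 ± 0.07), opposite to Abca1. Nr1h2, the gene of the ubiquitous LXR, differed by 0.21 ± 0.07 in EBSS (called) and -0.01 ± 0.07 in basal medium (adjusted p = 0.945). Nr1h3, the gene of the other LXR, was called in no comparison. Its group means were low, from 5.41 normalized counts in WT EBSS cells to 10.9 in Vps15KO EBSS cells, which limits that test. Rxra, the partner of LXR in its dimer, was lower in Vps15KO cells in EBSS (-0.69 ± 0.06) and in basal medium (-0.19 ± 0.06). Under EBSS 1 rose and 3 fell in Vps15KO cells (25.9% and 26.1% of all genes, median -0.18). In WT cells 2 rose and 5 fell (31.4% and 31.3% of all genes, median -0.24). Rxra rose in WT cells (0.54 ± 0.06), and Arl4c fell there (-0.65 ± 0.08). Ncor1, a corepressor, was higher in Vps15KO cells in both media (0.71 ± 0.12 in EBSS and 0.78 ± 0.12 in basal medium).

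Among 7 tested genes of oxysterol and ester metabolism, 2 were higher and 1 lower in Vps15KO cells in basal medium (29.3% and 29.2% of all genes, median 0.09), and 3 higher and 0 lower in EBSS (29.4% and 27.8% of all genes, median 0.15). Nceh1, a hydrolase of cholesteryl esters, was higher (0.87 ± 0.08 in EBSS and 1.39 ± 0.08 in basal medium), as was Soat1, which makes the esters (0.34 ± 0.07 and 0.46 ± 0.07). Ch25h, which makes an oxysterol from cholesterol, had 0.986 to 5.90 normalized counts in Vps15KO EBSS libraries, 1.02 to 2.01 in WT EBSS libraries, 0 to 0.981 in Vps15KO basal libraries and 0 to 0.9996 in WT basal libraries, too few to test. Under EBSS 1 rose and 1 fell in Vps15KO cells (25.9% and 26.1% of all genes, median -0.01). In WT cells 2 rose and 1 fell (31.4% and 31.3% of all genes, median -0.01). Nceh1 rose in both genotypes (0.28 ± 0.08 in Vps15KO cells and 0.80 ± 0.08 in WT cells).

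Among 16 genes of sterol transfer between membranes, 9 were higher and 3 lower in Vps15KO cells in basal medium (29.3% and 29.2% of all genes, median 0.16), and 8 higher and 4 lower in EBSS (29.4% and 27.8% of all genes, median 0.16). Osbpl8, a lipid exchanger at contacts of the endoplasmic reticulum, was higher (0.43 ± 0.10 in EBSS and 0.94 ± 0.10 in basal medium), and Osbpl5, its close relative, was lower (-0.77 ± 0.06 and -0.71 ± 0.06). Lamp1, a protein of the lysosomal membrane, was higher (0.46 ± 0.07 and 0.61 ± 0.07). Under EBSS 4 rose and 2 fell in Vps15KO cells (25.9% and 26.1% of all genes, median 0.05). In WT cells 6 rose and 1 fell (31.4% and 31.3% of all genes, median 0.04). Gramd1a, which carries cholesterol from the plasma membrane to the endoplasmic reticulum, fell by 0.46 ± 0.08 in Vps15KO cells and 0.88 ± 0.08 in WT cells.

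Among 13 tested genes of acetyl-CoA supply and prenyl branches, 8 were higher and 2 lower in Vps15KO cells in basal medium (29.3% and 29.2% of all genes, median 0.34), and 7 higher and 1 lower in EBSS (29.4% and 27.8% of all genes, median 0.34). Acss2, which makes acetyl-CoA from acetate, was higher by 1.09 ± 0.09 in each medium, Acly, which makes it from citrate, by 0.53 ± 0.07 in EBSS and 0.78 ± 0.07 in basal medium, and Slc25a1, the mitochondrial citrate carrier, by 0.54 ± 0.07 and 0.52 ± 0.07. Under EBSS 3 rose and 5 fell in Vps15KO cells (25.9% and 26.1% of all genes, median -0.05). In WT cells 2 rose and 4 fell (31.4% and 31.3% of all genes, median -0.15). Slc25a1 fell by 0.64 ± 0.07 in Vps15KO cells and 0.66 ± 0.07 in WT cells.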

How the data were processed

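Poly-A RNA of 12 libraries was sequenced in read pairs after strand marking with dUTP, per the labels' protocols, and no library differs from the rest in its batch label. Named in the submitters' processing notes, with no role or order, are DESeq2, featureCounts, limma, STAR (2.7.10b) and mm10 as the build. The deposited table holds log2 values that the authors had stabilized for variance, with the lowest value, 3.83, standing for a count of 0. Inverting the transformation gave whole reads for 100% of values (tolerance 0.001), and the libraries' size factors lay between 0.945 and 1.02. A count of 0 allows up to 3 reads, for counting error only, since reads without molecular identifiers are not independent molecules.

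A gene was tested if its mean lay 1 or more above the lowest value (14279 genes). The model, a mean for each group over all 12 libraries, used limma 3.58.1 (R 4.3.3), moderated variances with a trend (8 residual and 10.2 prior degrees of freedom), and with two-sided p-values adjusted by Benjamini and Hochberg over all genes tested in a comparison. The 5 comparisons were Vps15KO minus WT in each medium, EBSS minus basal medium in each genotype, and the difference of the EBSS effects. The script was tested on simulated data. Genes named beside the members were Pik3r4, up to 3 genes of each further list with the smallest p in basal medium or under EBSS in WT cells, and Ch25h, Srebf1, Nr1h2 and Nr1h3, of which some are not reported here. Lrp1, Lrpap1 and Snx17 were added as the listed receptors and adaptors called lower in Vps15KO cells in basal medium. The members and lists were chosen with earlier results of these data known. Copies with at least 95% identity over 200 bases were sought with BLAST 2.17.0: Acat2 matched Acat3 at 97.7% over 1477 bases (a mean of 14.8 normalized counts) and Tcp1 at 98.7% over 445 bases (7359), and pseudogenes of Fdft1, Fdps, Ggps1, Idi1 and Tmem97 had means of 10.1 or fewer. Alternatives were another filter, scale, normalization, model, weighting or threshold, removal of length and GC trends, a replicate block, and leaving out libraries.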

Additional observations from a re-analysis of the deposited data

Results flagged for a closer look

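In 10 of 29 tested members the EBSS effect differed between Vps15KO and WT cells by the interaction term of the limma fit. Of all genes tested, 17.8% were called for this term in either direction. Each value here is the EBSS effect in Vps15KO cells minus that in WT cells on the log2 scale. It was -1.24 for Hsd17b7 and -1.12 for Insig1, which rose less in Vps15KO cells, and -0.61 for Abca1, which did likewise. It was -0.62 for Hmgcs1 and -0.52 for Dhcr7, which fell more in Vps15KO cells. It was 0.70 for Fdft1 and 0.46 for Msmo1, which fell less in Vps15KO cells. It was 0.75 for Mylip, whose value of 0.05 in Vps15KO cells was not called and which fell in WT cells, and 0.32 for Npc1, which rose in Vps15KO cells with a value of 0.08 in WT cells that was not called. It was -0.29 for Tmem97, whose value of -0.04 in Vps15KO cells was not called and which rose in WT cells. The Tmem97 call was lost in most fits that left out a single library. The adjusted p ranged between 5.53e-06 for Insig1 and 0.0394 for Tmem97.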

How the results depend on the processing

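With a log2 difference of at least 1 added to the threshold, fewer members were called in every comparison. For Vps15KO against WT, 15 were higher and 0 lower in basal medium, and 13 and 0 in EBSS. For EBSS against basal medium, 0 were higher and 1 lower in Vps15KO cells, and 3 and 1 in WT cells. The difference of the EBSS effects was called positive for 0 and negative for 2. The shares of all genes at this threshold were not worked out, so these counts show only the loss of calls. The median Vps15KO difference of the 19 enzymes in basal medium (1.26) was 1.36 on the log2 scale of normalized counts plus 1, 1.36 with voom on the reads, 1.12 with library weights, 1.10 with length and GC trends removed (13527 genes, 94.7% of those tested) and 1.11 without WT basal replicate 2 alone or together with WT EBSS replicate 1. The WT median under EBSS was -0.21 without both of these libraries. With length and GC trends removed, the EBSS difference of Npc1 in WT cells turned to -0.19 and that of Sc5d in Vps15KO cells to -0.15 (adjusted p = 0.0259). The cause of these changes was not tested.

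Leaving out 1 library at a time gave 22 to 25 members higher and 2 to 3 lower in Vps15KO cells in basal medium (median of the enzymes 1.11 to 1.32), and 22 to 23 higher and 2 to 3 lower in EBSS (1.03 to 1.05). Under EBSS it gave 4 to 6 higher and 10 to 17 lower in Vps15KO cells (-0.28 to -0.15), 6 to 9 higher and 10 to 14 lower in WT cells (-0.17 to -0.10), and for the difference 4 positive and 5 to 7 negative (-0.19 to -0.08). The shares of all genes called in these fits were not worked out, so the ranges show only how the counts depend on single libraries. Abca1 in basal medium was also not called with no filter (0.0672), voom (0.0543) or no variance trend (0.0562).

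Replicate numbers were not taken to pair libraries, since the labels do not say that a number marks a shared culture or day. Same-number residuals of the genotypes correlated at 0.124, 0.039 and 0.118 in EBSS and 0.0905, 0.26 and 0.0825 in basal medium. Different-number residuals correlated at -0.111 to -0.012 in EBSS and -0.212 to 0.106 in basal medium. Whether same-number libraries shared a culture or day was not tested. With the replicate number as a block in the fit, 143 of 145 tested values kept their direction and call, and Nsdhl (-0.15, adjusted p = 0.0592) and Mvk (-0.24, adjusted p = 0.0562) under EBSS in Vps15KO cells were no longer called. With the block within each medium, the difference of the EBSS effects was also called for Acat2 (0.0415), Ggps1 (0.0351) and Sc5d (0.0317). The numbers of members called under the block stayed within 1.5 times those without it. Depth limits Abcg1 and Ch25h, which had too few reads to test.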

Other observations

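A few further genes of cholesterol and isoprenoid handling had values not described above. Rabggtb, a subunit of the transferase that prenylates Rab proteins, was higher in Vps15KO cells by 0.82 ± 0.07 in EBSS and 0.67 ± 0.07 in basal medium, and Coq2, which prenylates the precursor of coenzyme Q, by 0.48 ± 0.07 and 0.34 ± 0.07. Under EBSS, Coq2 fell by 0.46 ± 0.07 in Vps15KO cells and 0.61 ± 0.07 in WT cells. Pggt1b, a subunit of a protein geranylgeranyl transferase, rose instead, by 0.64 ± 0.08 and 0.36 ± 0.08. Rnf139, a ubiquitin ligase of the endoplasmic reticulum, rose by 0.58 ± 0.10 in Vps15KO cells and 0.75 ± 0.10 in WT cells. Osbpl2, a lipid transfer protein, was lower in Vps15KO cells in EBSS (-0.29 ± 0.06) and differed by 0.01 ± 0.06 in basal medium (adjusted p = 0.94). Lipa, the lysosomal acid lipase that frees cholesterol from esters, differed between Vps15KO and WT cells by -0.15 ± 0.07 in EBSS (adjusted p = 0.0592) and 0.09 ± 0.07 in basal medium (adjusted p = 0.272), unlike Nceh1. Cyp46a1, a cholesterol hydroxylase best known from neurons, was lower in Vps15KO cells in basal medium (-0.52 ± 0.14) and fell under EBSS by 0.43 ± 0.14 in Vps15KO cells and 1.10 ± 0.14 in WT cells.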
